A study of Homo sapiens with 8 samples.

Results

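The genes described here encode the nuclear subunits of the mitochondrial respiratory chain and ATP synthase, with a few factors that share their name prefixes. Members were probes whose gene symbol starts with NDUFA, NDUFB, NDUFC, NDUFS, NDUFV, UQCR, COX4I, COX5, COX6, COX7, COX8 or ATP5, or is an SDH subunit gene, with pseudogenes left out. The symbols gave 104 candidate probes of 83 genes. Of these, 1 pseudogene probe was left out and 12 probes had no detection p under 0.05 on at least 2 of the 8 arrays. The remaining 91 probes of 74 genes were among the 14574 tested probes of 10932 genes, on an array of 24526 probes. They comprised 31 probes of 30 genes for subunits of complex I, 10 probes of 7 genes for complex I assembly factors (the NDUFAF genes, which the prefix NDUFA takes in), 3 of 3 for complex II, 9 of 7 for complex III, 11 of 11 for complex IV, 25 of 15 for complex V, and 2 probes of ATP5IF1, the inhibitor of complex V.

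HCT116, a line grown from a human colon cancer, was studied with and without p53, and RNA was measured on Illumina bead arrays, 2 for each of 4 groups. The groups were p53-/- cells given 25 µM of the small molecule P2, p53-/- cells left untreated, p53+/+ cells given 25 µM P2, and p53+/+ cells left untreated. The controls are called untreated and no solvent control is named, no time of treatment is given, and the extraction notes speak of frozen tissue although a cell line is described. Nothing in the labels says that the 2 arrays of a group came from separate cultures, so a p-value here reflects only how far such arrays differ, possibly for technical reasons, and precision is limited by having 2 of them. The gene that distinguishes the genotypes is not analysed here.

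Oxidative phosphorylation is the last stage of respiration, in which complexes I and II pass electrons from NADH and succinate to ubiquinone, complex III passes them on to cytochrome c, and complex IV passes them to oxygen. Complexes I, III and IV pump protons across the inner mitochondrial membrane, and complex V, the ATP synthase, uses the returning protons to make ATP. A few core subunits come from mitochondrial DNA, and 0 probes for these were among the tested ones. The nuclear subunits have to be made in proportion, and their promoters are known for sites of NRF1, ETS-family factors and YY1.

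Values are normalized log2 intensities, and a change is a difference of these. A probe was called when its limma p was under 0.05 after Benjamini-Hochberg adjustment across the 14574 tested probes. The median intensity per array before normalization was 52.2 to 69.1, and 87 of the 91 member probes were detected on all 8 arrays, against 81.8% of the tested probes. On p53-/- untreated replicate 1, 215 of the 14574 tested probes lay at least 1 log2 below replicate 2, and 0 of them were members. That fraction is too small for 0 of 91 to set members apart. Without that array the members called for P2 in p53-/- cells went from 13 to 5, and all tested probes from 25.4% to 14.8%. Of 12 colon epithelium markers 6 were measured, among them EPCAM, and CDX1, CEACAM5, CEACAM6, KRT20, LGALS4 and VIL1 were not detected on 2 arrays. The summed level over all probes of this list was 13530 to 14850 in p53-/- cells with P2, against 11430 to 12510 without, and 14310 to 15660 in p53+/+ cells with P2, against 12430 to 13380 without, which puts both treated groups above their controls. Of the other cell types, 2 of 10 fibroblast markers, 2 of 11 leukocyte, 1 of 6 endothelial, 1 of 5 erythroid and 2 of 6 muscle markers were measured, without PTPRC, CD3E, COL3A1, VWF or HBB. Each sum takes in the undetected probes of its list, so background is a large part where few markers were measured. How much of a sum or of a difference is background was not tested. Over all probes of the leukocyte list the sum was 544.5 to 577.6 in p53-/- cells with P2, against 526.2 to 539.5 without, and 557.1 to 563.8 in p53+/+ cells with P2, against 501 to 516.8 without. That of the erythroid list, with HBA2 as its measured gene, was 193.3 to 206.5 with P2 against 251.3 to 319.2 untreated in p53-/- cells and 193 to 195.5 against 289.9 to 309.7 in p53+/+ cells, lower with P2. Sums of the fibroblast list were 308.7 to 321.2 against 332.1 to 336.1 in p53-/- cells and 312 to 319.5 against 318.8 to 323.6 in p53+/+ cells, and those of the muscle list 131.9 to 134.3 against 143.7 to 148.6 in p53-/- cells and 127.3 to 138.7 against 134.1 to 137.1 in p53+/+ cells, P2 against untreated in each case, with 1 probe of each called lower in p53-/- cells and 0 called in p53+/+ cells. The endothelial list summed to 153 to 157.3 with P2 against 157.1 to 171.6 untreated in p53-/- cells, and 150.4 to 151 against 156.8 to 158.2 in p53+/+ cells, with 0 called. Their part in the results below was not tested, and in bulk RNA fewer cells of a type and less RNA per cell cannot be told apart.

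Most oxidative phosphorylation genes changed little with P2. In p53-/- cells 13 of the 91 probes were called, which is 14.3% of members against 25.4% of all tested probes. Of these 9 were higher (11.8% of all tested probes were) and 4 lower (13.6%). In p53+/+ cells 7 were called, 7.69% of members against 12% of all tested probes, 5 of them higher (5.71% of all tested probes were) and 2 lower (6.29%). The median change over members was 0.030 log2 in p53-/- cells and 0.053 log2 in p53+/+ cells, beside -0.042 and -0.0054 log2 over all tested probes. The median size of a change, whatever its direction, was 0.17 log2 in p53-/- cells and 0.13 in p53+/+ cells for members, and 0.23 and 0.18 for all tested probes. Changes over 1.5-fold were seen for 8 member probes in p53-/- cells (8.79%, with 14.6% of all tested probes past that size) and for 1 in p53+/+ cells (1.1%, with 7.18%). Averaged over both genotypes, 20 probes were called, which is 22% of members against 31.9% of all tested probes, with 14 higher (14.7% of all tested probes) and 6 lower (17.2%).

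**Figure D1:**
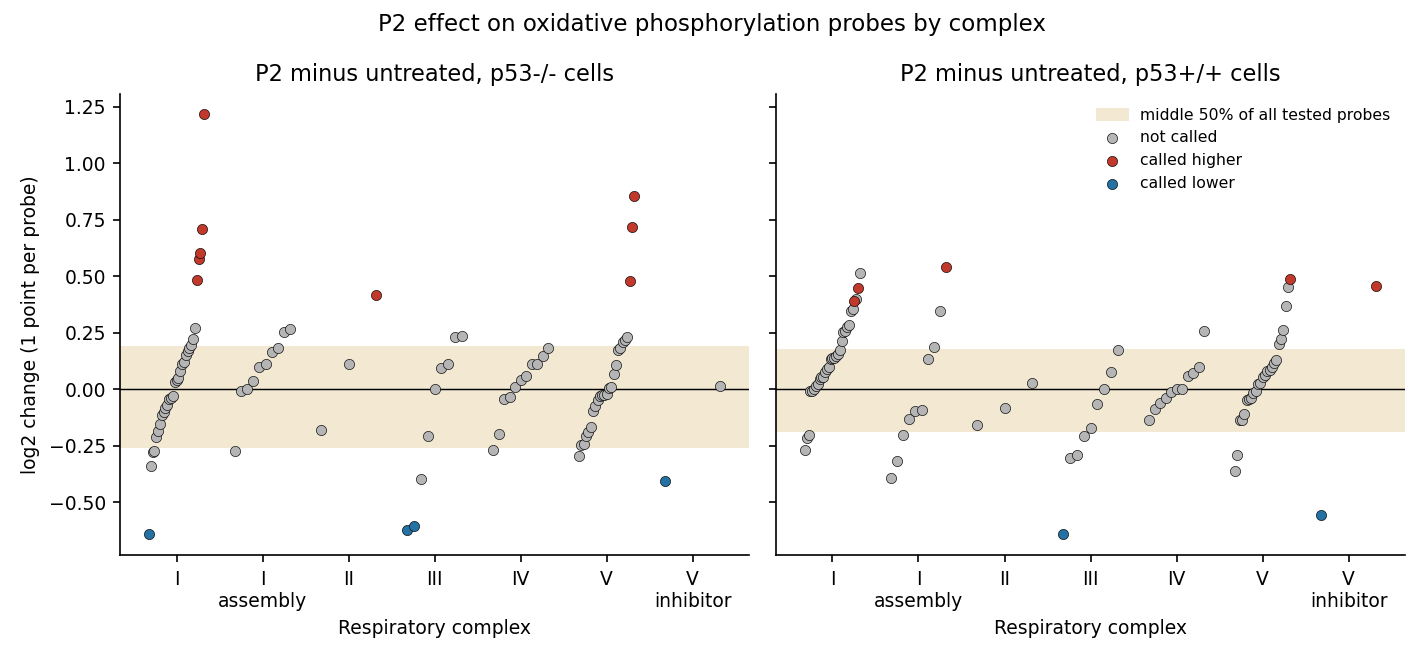
Change in normalized log2 intensity, P2 minus untreated, for each of the 91 probes (points, sorted within each complex), in p53-/- cells on the left and p53+/+ cells on the right. The shaded band holds the middle 50% of all tested probes, red and blue points passed an adjusted p of 0.05, and in p53+/+ cells both ATP5IF1 probes lie outside the band, 1 on each side.

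These counts and signs depended on the scaling and on single arrays. With each array scaled to its median in place of quantile normalization, the calls were 4 higher and 3 lower in p53-/- cells, 0 higher and 2 lower in p53+/+ cells, and 2 higher and 5 lower for the mean effect, where 17.5%, 6.95% and 25.3% of all tested probes were called. The median over members then was -0.08 log2 in p53-/- cells and -0.09 in p53+/+ cells, while that over all tested probes was -0.12 and -0.11. The count for p53-/- cells was 4 without p53-/- P2 replicate 1, 5 without P2 replicate 2 and 5 without untreated replicate 1, with 10.3%, 14.7% and 14.8% of all tested probes called. Probes of 3 genes, NDUFS1, ATP5MC2 (ILMN_1669102) and UQCR10 (ILMN_2366714), were called in p53-/- cells whichever array was left out. The count for p53+/+ cells was 2 without untreated replicate 1, 1 without untreated replicate 2, 1 without P2 replicate 1, 1 without P2 replicate 2, and 4 without either P2-treated p53-/- array, with 4.03%, 4.65%, 4.03%, 4.59% and 9.57% of all tested probes called. In untreated p53+/+ cells 77 of the 91 members were lower on replicate 1 than on replicate 2, by a median of -0.15 log2, against -0.003 over all tested probes. The median P2 effect over members in p53+/+ cells was -0.03 log2 without replicate 1 and 0.14 without replicate 2 of the untreated arrays.

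Decreases called in both genotypes came from UQCR10 in complex III and from ATP5IF1, the inhibitor of complex V. In each gene the probe so called was not the brightest. With only the brightest probe of each gene neither was tested. In p53+/+ cells 4 members were then called higher and 0 lower, with 14.9% of the tested probes called. UQCR10 encodes a small subunit of the cytochrome bc1 complex, and its probe ILMN_2366714 read 7.40 and 7.45 in P2-treated p53-/- cells, against 8.01 and 8.05 in untreated p53-/- cells. The p53+/+ cells gave 7.27 and 7.40 with P2, against 7.88 and 8.08 untreated. All 4 treated arrays lay below all 4 untreated arrays. UQCR10 fell by 0.60 ± 0.11 log2 in p53-/- cells (SE, n = 2 arrays per group, 1.52-fold, adjusted p = 0.00587). In p53+/+ cells the fall was 0.64 ± 0.11 log2 (1.56-fold, adjusted p = 0.00789). The call in p53+/+ cells was lost without untreated replicate 2 (adjusted p = 0.065) and without P2 replicate 1 (0.0697).

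The other probes of UQCR10 gave smaller or less even changes. Probe ILMN_2366710, which the annotation gives with the same gene, read 6.54 and 6.67 in P2-treated and 7.32 and 7.13 in untreated p53-/- cells, and fell by 0.62 log2 (adjusted p = 0.0191). That call was lost without p53-/- untreated replicate 1 (0.0823), P2 replicate 1 (0.116) or P2 replicate 2 (0.0586). In p53+/+ cells the same probe read 6.53 and 6.94 with P2 and 6.94 and 7.15 without, a change of -0.31 log2 that was not called. Probe ILMN_1781986, the brightest of the 3, was not called in either genotype, at -0.21 log2 in p53-/- cells and -0.07 in p53+/+ cells. The 3 probes are annotated to 2 transcripts.

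Of the other 6 genes of complex III, UQCR11, another small subunit, read 6.52 and 6.14 in P2-treated p53-/- cells, against 6.73 and 6.73 in untreated ones, and 6.62 and 6.72 in P2-treated p53+/+ cells, against 6.86 and 6.90 in untreated ones. Treated arrays were below untreated arrays in both genotypes. UQCR11 was called for the mean effect alone, -0.30 log2 (adjusted p = 0.037), and 10 of 19 alternatives ended that call, among them the omission of any array but p53-/- P2 replicate 1 (0.0528 to 0.113). The core proteins UQCRC1 and UQCRC2, the hinge protein UQCRH, the ubiquinone-site protein UQCRQ and UQCRB were not called, with changes from 0.002 to 0.23 log2 in p53-/- cells. Their changes in p53+/+ cells had both signs. Over all 9 probes of complex III, 4 changes were negative in p53-/- cells (median 0.002 log2) and 6 in p53+/+ cells (median -0.17 log2).

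**Figure D2:**
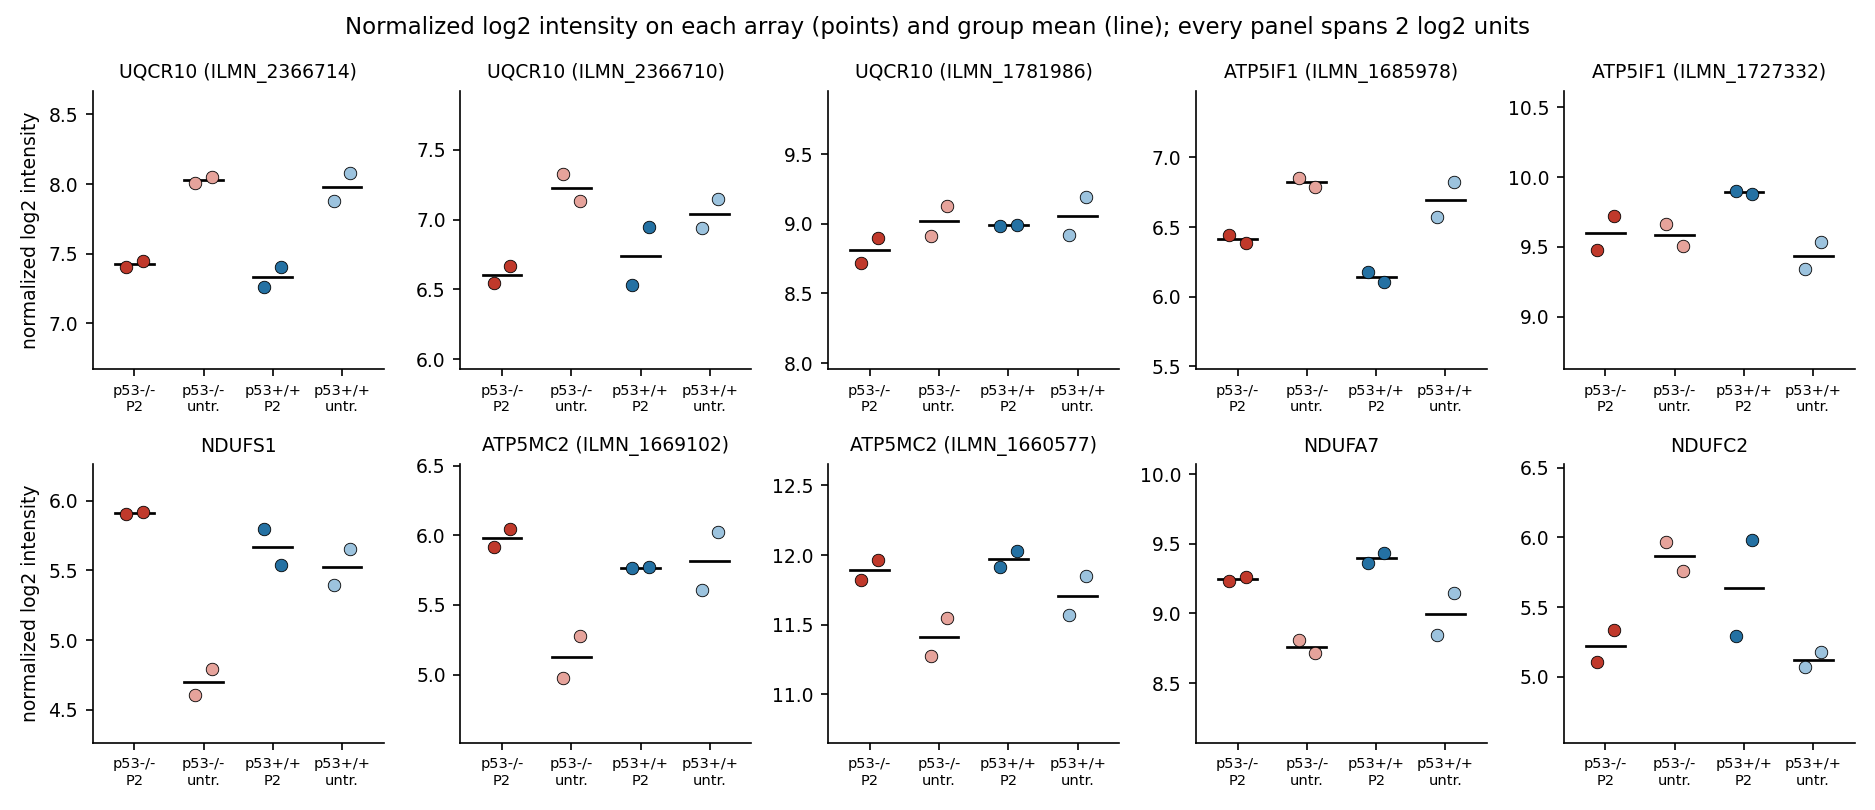
Normalized log2 intensity on each array (points) and group mean (line) for 10 probes, each panel spanning 2 log2 units, with the groups in the order p53-/- P2, p53-/- untreated, p53+/+ P2, p53+/+ untreated. UQCR10 ILMN_2366714 and ATP5IF1 ILMN_1685978 are lower in both treated groups, while NDUFS1 and ATP5MC2 ILMN_1669102 are low in untreated p53-/- cells alone.

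ATP5IF1 encodes a small protein that blocks the ATP synthase from running backwards and consuming ATP. Its probe ILMN_1685978 read 6.44 and 6.39 in P2-treated p53-/- cells, against 6.85 and 6.79 in untreated p53-/- cells. In p53+/+ cells it read 6.18 and 6.11 with P2, against 6.57 and 6.82 untreated. The 4 treated arrays were again below the 4 untreated ones. The p53-/- cells had a fall of 0.41 ± 0.12 log2 (adjusted p = 0.0316) and the p53+/+ cells a fall of 0.56 ± 0.12 log2 (adjusted p = 0.0167). The mean effect of -0.48 log2 (adjusted p = 0.00262) was called under all 18 alternatives that tested this probe. Within p53-/- cells 7 of 19 alternatives ended the call, among them median scaling (0.151) and the omission of untreated replicate 1 (0.118), P2 replicate 1 (0.105) or P2 replicate 2 (0.123). Within p53+/+ cells it was lost without untreated replicate 2 (0.109), P2 replicate 1 (0.0745) or P2 replicate 2 (0.0971).

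The second ATP5IF1 probe went the other way in p53+/+ cells. ILMN_1727332 read 9.90 and 9.88 with P2 against 9.34 and 9.53 untreated in p53+/+ cells, a change of 0.46 ± 0.13 log2 (adjusted p = 0.048). In p53-/- cells it read 9.48 and 9.72 with P2 and 9.66 and 9.51 untreated, so that the groups overlapped and the change was 0.02 log2. The probes are annotated to different transcripts of the gene. ILMN_1727332 is the brighter and stands for the gene when 1 probe per gene is kept. Its mean effect was 0.24 log2, not called in the main fit, but called higher under several alternatives. Their adjusted p ran from 0.0358 (variance trend and robust moderation) to 0.0491 (authors' log2 values). Of 20 alternatives, 9 ended the call of ILMN_1727332, among them the omission of p53+/+ untreated replicate 1 (0.243), untreated replicate 2 (0.0902), P2 replicate 1 (0.185) or P2 replicate 2 (0.161), and median scaling (0.26 log2, 0.52).

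Complex I, the NADH dehydrogenase, had 5 probes called higher and 1 called lower in p53-/- cells, and 2 called higher and 0 lower in p53+/+ cells, of 31. Of all tested probes 11.8% were called higher and 13.6% lower in p53-/- cells, and 5.71% and 6.29% in p53+/+ cells. The median change of complex I was 0.04 log2 in p53-/- cells and 0.14 in p53+/+ cells. Of its 31 probes 17 had a positive change in p53-/- cells and 26 in p53+/+ cells, where 44.7% and 49% of all tested probes did. Over all members the median in p53+/+ cells was -0.03 log2 without untreated replicate 1 and 0.14 without replicate 2. It was -0.09 under median scaling, beside -0.11 over all tested probes. NDUFS1 encodes the largest subunit, which carries iron-sulfur clusters on the way from NADH to ubiquinone. The NDUFS1 probe read 5.91 and 5.92 in P2-treated p53-/- cells, against 4.60 and 4.79 in untreated p53-/- cells, on both of which it was not well above background. In p53+/+ cells it read 5.79 and 5.54 with P2, against 5.39 and 5.65 untreated. The untreated p53-/- arrays were the lowest of all 8, and the p53+/+ groups overlapped.

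NDUFS1 rose at least 2.08-fold in p53-/- cells, with a fitted change of 1.21 ± 0.14 log2 and an adjusted p of 0.000588. This call was kept under all 19 alternatives that tested the probe. Both the bound and the fitted size hold for this background correction, since the fitted change was 0.66 log2 without background correction and 0.65 log2 with a larger offset. In p53+/+ cells the change was 0.15 ± 0.14 log2 (adjusted p = 0.537). In untreated cells NDUFS1 averaged 4.70 log2 in p53-/- cells, not well above background, and 5.52 log2 in p53+/+ cells, at least 1.58-fold lower in p53-/- cells by the bound (adjusted p = 0.0528). The fitted difference between the genotypes' P2 effects, 1.07 log2 (adjusted p = 0.0762), also rests on that dim group and is no exact size. Both comparisons passed the threshold without p53-/- untreated replicate 2, at adjusted p = 0.00954 for the difference and 0.00621 for untreated cells.

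The other complex I genes called in p53-/- cells were accessory subunits. NDUFB7, in the membrane arm, read 10.70 and 10.94 in P2-treated p53-/- cells, against 9.74 and 10.49 in untreated ones, and rose by 0.71 ± 0.22 log2 (adjusted p = 0.0406). NDUFA10, also in the membrane arm, read 9.16 and 8.91, against 8.22 and 8.65 in untreated p53-/- cells, and rose by 0.60 ± 0.16 log2 (adjusted p = 0.0235). For both genes untreated replicate 1 was the lowest of the 8 arrays, and without it the changes were 0.33 log2 for NDUFB7 (adjusted p = 0.19) and 0.39 for NDUFA10 (0.125), while without replicate 2 that of NDUFB7 was 1.09 log2 (0.000879). NDUFV3, an accessory subunit of the NADH-binding module, rose by 0.58 ± 0.15 log2 by probe ILMN_1765500 (adjusted p = 0.0218), while its dimmer probe ILMN_2387731, of another transcript, changed by -0.34 log2 and was not called, but fell by 0.56 log2 without p53-/- untreated replicate 2 (adjusted p = 0.039).

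NDUFA7, an accessory subunit of the matrix arm, moved alike in both genotypes. It read 9.23 and 9.26 with P2 against 8.81 and 8.71 untreated in p53-/- cells, and 9.36 and 9.43 with P2 against 8.84 and 9.15 untreated in p53+/+ cells. All treated arrays were above all untreated ones. The p53-/- cells had a change of 0.48 ± 0.12 log2 (adjusted p = 0.0212), the p53+/+ cells a change of 0.40 ± 0.12 log2 (adjusted p = 0.0691), and it was 0.44 ± 0.09 log2 for the mean effect (adjusted p = 0.00555), whose call 18 of 19 alternatives kept and median scaling ended (0.27 log2, adjusted p = 0.166).

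NDUFC2, an accessory subunit of the membrane arm, was the 1 complex I gene called lower in p53-/- cells. It read 5.11 and 5.33 with P2 against 5.97 and 5.76 untreated in p53-/- cells, and 5.29 and 5.98 with P2 against 5.07 and 5.17 untreated in p53+/+ cells. In p53+/+ cells P2 replicate 1 lay near the untreated arrays and replicate 2 well above them. NDUFC2 fell by 0.64 ± 0.20 log2 in p53-/- cells (adjusted p = 0.0458), a call that 10 of 19 alternatives ended (-0.34 log2, adjusted p = 0.0528, without background correction), and changed by 0.51 ± 0.20 in p53+/+ cells (adjusted p = 0.137). The difference between the genotypes was -1.15 ± 0.29 log2 (adjusted p = 0.122). Without p53+/+ P2 replicate 1 the change in p53+/+ cells was 0.86 log2 (adjusted p = 0.0281) and the difference -1.498 log2 (0.0331), and without p53-/- untreated replicate 2 the difference was -1.26 log2 (0.0377).

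Single arrays decided several of these calls in p53-/- cells. Without p53-/- P2 replicate 1, NDUFA10, NDUFA7, NDUFB7, NDUFC2 and NDUFV3 lost theirs, with adjusted p from 0.091 (NDUFA7) to 0.225 (NDUFC2). Without p53-/- P2 replicate 2, NDUFA7, NDUFB7, NDUFC2 and NDUFV3 did, with adjusted p from 0.0602 (NDUFV3) to 0.184 (NDUFB7). NDUFC2 was also lost without p53-/- untreated replicate 1 (0.159), and NDUFA7 and NDUFV3 without untreated replicate 2 (0.0633 and 0.0839). NDUFB7 was not called without any of the 4 p53+/+ arrays either (0.0585 to 0.0619), nor NDUFC2 without either untreated p53+/+ array (0.0697), where only the shared estimate of the spread changed.

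In p53+/+ cells the called complex I genes were NDUFB10 and NDUFS8. NDUFB10, an accessory subunit of the membrane arm, read 11.48 and 11.40 with P2 against 10.99 and 10.9997 untreated in p53+/+ cells, and 11.29 and 11.27 with P2 against 11.16 and 11.06 untreated in p53-/- cells. Treated arrays were above untreated ones in both genotypes, by 0.45 ± 0.10 log2 in p53+/+ cells (adjusted p = 0.0236), while the 0.17 log2 of p53-/- cells was not called. NDUFS8, a core subunit with iron-sulfur clusters, read 11.84 and 11.80 with P2 against 11.41 and 11.46 untreated in p53+/+ cells, and 11.33 and 11.35 with P2 against 11.45 and 11.32 untreated in p53-/- cells. It rose by 0.39 ± 0.10 log2 in p53+/+ cells (adjusted p = 0.0403), the p53-/- groups overlapped, and the difference between the genotypes was -0.43 ± 0.15 log2 (adjusted p = 0.2). Neither call held without P2 replicate 1 of the p53+/+ cells (0.137 for NDUFB10 and 0.174 for NDUFS8), P2 replicate 2 (0.0843 and 0.136), untreated replicate 1 (0.113 and 0.173) or untreated replicate 2 (0.0998 and 0.127), and NDUFS8 was also lost without either P2-treated p53-/- array (0.0629). Under median scaling neither was called, at 0.28 log2 for NDUFB10 (0.485) and 0.24 log2 for NDUFS8 (0.555).

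For the mean effect NDUFA3, an accessory subunit, was called at 0.23 log2 (adjusted p = 0.0459) and NDUFV2, a core subunit next to the NADH site, at -0.27 log2 (adjusted p = 0.0455). NDUFA3 lost its call whichever of the 8 arrays was left out (0.0549 to 0.139), and NDUFV2 kept its call only without p53+/+ P2 replicate 1 (0.0525 to 0.147 otherwise). The other complex I subunits were not called in either genotype, among them NDUFV1, which binds NADH, and NDUFS3, NDUFS4, NDUFS5 and NDUFS7.

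The assembly factors of complex I are not part of the finished enzyme. Of their 10 probes, 0 were called in p53-/- cells and 1 in p53+/+ cells, where 25.4% and 12% of all tested probes were. NDUFAF3 by probe ILMN_2354515 read 11.50 and 11.46 with P2 against 10.88 and 10.996 untreated in p53+/+ cells, and 11.31 and 11.42 with P2 against 11.22 and 11.18 untreated in p53-/- cells. Treated arrays were above untreated ones in both genotypes. The change was 0.54 ± 0.11 log2 in p53+/+ cells (adjusted p = 0.0121) and 0.16 log2, not called, in p53-/- cells. The call in p53+/+ cells was lost under median scaling (0.265) and without p53+/+ untreated replicate 1 (0.0904), P2 replicate 1 (0.084) or P2 replicate 2 (0.0624). The dimmer probe ILMN_1691557 of NDUFAF3 had a mean effect of 0.23 log2 (adjusted p = 0.0435), called in full but not without 7 of the 8 arrays (0.0669 to 0.133). NDUFAF5, a hydroxylase that acts on a complex I subunit, had a difference between the genotypes of 0.50 ± 0.18 log2 by probe ILMN_2350607 (adjusted p = 0.221).

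Complex II, succinate dehydrogenase, was measured by its flavoprotein SDHA and its membrane anchors SDHC and SDHD. SDHD read 10.74 and 10.88 with P2 against 10.39 and 10.39 untreated in p53-/- cells, and 10.54 and 10.67 with P2 against 10.59 and 10.57 untreated in p53+/+ cells. The p53-/- groups were apart and the p53+/+ groups overlapped. SDHD rose by 0.42 ± 0.11 log2 in p53-/- cells (adjusted p = 0.0215), while it changed by 0.03 log2 in p53+/+ cells, and the difference of 0.39 log2 did not pass (adjusted p = 0.252). The call was lost without p53-/- untreated replicate 1 (0.0722), P2 replicate 1 (0.0551) or P2 replicate 2 (0.111), and under median scaling (0.331). SDHA changed by -0.18 log2 in p53-/- cells and -0.16 in p53+/+ cells, and SDHC by 0.11 and -0.09, and neither was called.

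Of the 25 probes of complex V, 3 were called in p53-/- cells and 1 was called in p53+/+ cells, with 0 lower in either genotype. Of all tested probes 25.4% were called in p53-/- cells (13.6% lower) and 12% in p53+/+ cells (6.29% lower). ATP5MC2 is 1 of the genes for the c subunit, whose ring in the membrane turns as protons pass. Its dimmer probe ILMN_1669102 read 5.91 and 6.04 in P2-treated p53-/- cells, against 4.98 and 5.28 in untreated p53-/- cells. In p53+/+ cells it read 5.76 and 5.77 with P2, against 5.61 and 6.02 untreated. As for NDUFS1, the untreated p53-/- arrays were the lowest of the 8 and the p53+/+ groups overlapped. This probe rose by 0.85 ± 0.16 log2 in p53-/- cells (1.81-fold, adjusted p = 0.00535), while it changed by -0.05 log2 in p53+/+ cells. The call in p53-/- cells was kept under all 18 alternatives that tested this probe, but the size of the rise was 0.46 to 1.00 log2 over them. It was 0.46 without background correction, 0.49 with a larger background offset and 0.56 with the authors' log2 values.

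The brighter probe of ATP5MC2, ILMN_1660577, annotated to the same transcript, read 11.82 and 11.97 with P2 against 11.28 and 11.55 untreated in p53-/- cells, and 11.91 and 12.03 with P2 against 11.57 and 11.85 untreated in p53+/+ cells. It rose by 0.48 ± 0.14 log2 in p53-/- cells (adjusted p = 0.0346), while it changed by 0.26 log2 in p53+/+ cells. Without p53-/- untreated replicate 1, P2 replicate 1 or P2 replicate 2 the call was lost (0.173, 0.0906 and 0.156), as it was without either P2-treated p53+/+ array (0.0515). The difference between the genotypes was 0.90 ± 0.22 log2 for ILMN_1669102 (adjusted p = 0.12), which passed without p53-/- untreated replicate 2 (1.05 log2, adjusted p = 0.0227). Another probe of the gene was detected on 0 arrays. ATP5MC1, which encodes the same c subunit protein with another import sequence, had mean effects of 0.34 log2 by ILMN_1712430 (adjusted p = 0.0302), lost without any of 4 arrays (p53-/- untreated replicate 1, p53-/- P2 replicate 2, p53+/+ untreated replicate 1 and p53+/+ P2 replicate 2, 0.0721 to 0.104), and 0.29 log2 by ILMN_1676393, not called.

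ATP5F1D, the delta subunit of the stalk, was called through a different probe in each genotype. ILMN_1653599 read 12.67 and 12.25 with P2 against 11.66 and 11.83 untreated in p53-/- cells, and rose by 0.72 ± 0.16 log2 (adjusted p = 0.0133), while it changed by 0.20 log2 in p53+/+ cells. ILMN_1679178, of another transcript, read 8.49 and 8.39 with P2 against 8.07 and 7.84 untreated in p53+/+ cells, and rose by 0.49 ± 0.14 log2 (adjusted p = 0.0499), while it changed by 0.18 log2 in p53-/- cells. The first call was lost without p53-/- untreated replicate 1 (0.054) or P2 replicate 1 (0.0994), and the second without any of the 4 p53+/+ arrays (0.0904 to 0.244) or either P2-treated p53-/- array (0.059), and under median scaling (0.32 log2, 0.426). ATP5MJ, a small membrane subunit, had a mean effect of -0.29 log2 (adjusted p = 0.0383), or -0.47 log2 under median scaling (0.0106), which was lost without p53-/- P2 replicate 1 (0.128), p53-/- untreated replicate 2 (0.0877), p53+/+ P2 replicate 1 (0.118) or 2 (0.0666), or p53+/+ untreated replicate 2 (0.125). The catalytic core genes ATP5F1A, ATP5F1B and ATP5F1C were not called, with changes from -0.21 to 0.23 log2 in p53-/- cells and from -0.13 to 0.11 in p53+/+ cells.

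Complex IV, cytochrome c oxidase, had 0 calls in either genotype, where 25.4% (p53-/-) and 12% (p53+/+) of all tested probes were called. Its 11 measured genes had changes from -0.27 to 0.18 log2 in p53-/- cells and from -0.14 to 0.26 log2 in p53+/+ cells. The 95% intervals of single genes reached from -0.50 to 0.51 log2 in p53-/- cells and from -0.42 to 0.54 in p53+/+ cells, so changes of up to about these sizes are within the error. At an unadjusted p under 0.05, 1 of the 11 passed in p53-/- cells and 0 in p53+/+ cells, where 39% and 28% of all tested probes did. That gene was COX4I1, the common form of a regulatory subunit. COX4I1 read 13.51 and 13.47 with P2 against 13.79 and 13.73 untreated in p53-/- cells, and 13.50 and 13.53 with P2 against 13.64 and 13.51 untreated in p53+/+ cells. The p53-/- groups were apart, as they were for 64.1% of all tested probes, at -0.27 ± 0.10 log2 (adjusted p = 0.0841). COX4I1 was called under 4 alternatives, with adjusted p from 0.0284 (variance trend and robust moderation) to 0.0444 (no filter).

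**Figure D3:**
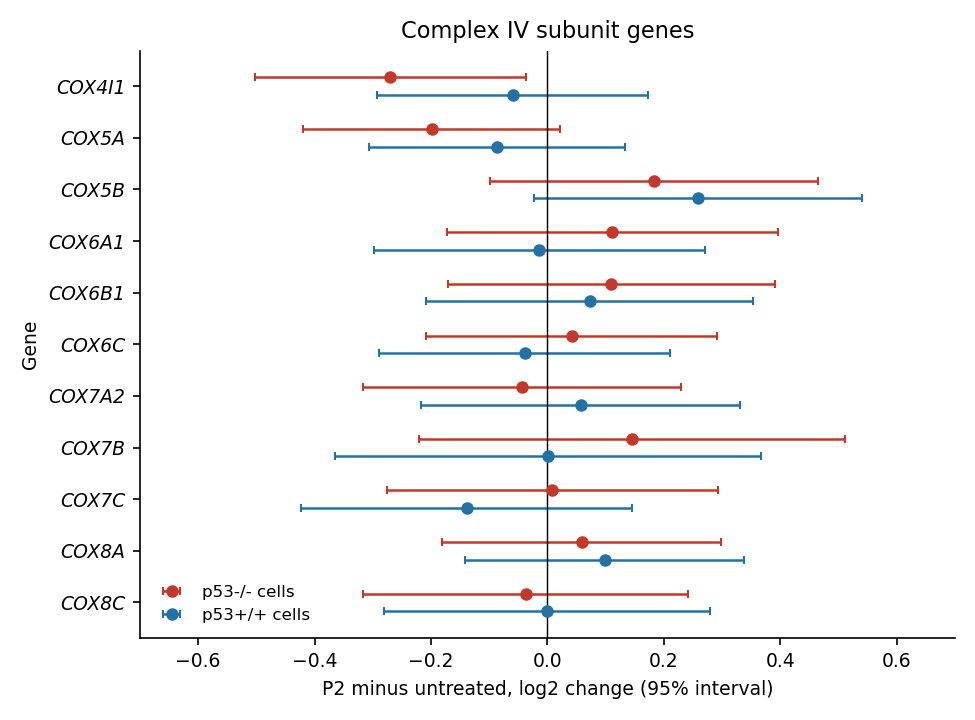
Change in log2 intensity, P2 minus untreated, with its 95% interval, for the 11 complex IV genes in p53-/- cells (red, upper of each pair) and p53+/+ cells (blue). Every interval includes 0 but that of COX4I1 in p53-/- cells.

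Several subunits of complex IV exist in paired forms, 1 found in most tissues and the other in muscle, lung or testis. The common forms COX4I1, COX6A1, COX6B1, COX7A2, COX7B and COX8A were detected on all 8 arrays. The alternative forms COX4I2, COX6A2, COX7A1 and COX7B2 were detected on 0 arrays and COX6B2 on 1, also after P2. COX8C, a testis form, was detected on 2 arrays, at 4.58 to 4.85 log2 on the 8 arrays, near background. The other candidates that missed detection on 2 arrays were probes of NDUFA5, NDUFB4 and NDUFS6, and further probes of ATP5MC2, NDUFAF3 and NDUFAF5.

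Responses were compared between the genotypes by the difference between their P2 effects. For this difference 0 members were called by limma, and 0% of all tested probes, while 10 members had an unadjusted p under 0.05 (11%, with 16.4% of all tested probes). With a variance trend and robust moderation 1 member passed, NDUFS1 (adjusted p = 0.0422), and with median scaling 3 passed, NDUFS1 (0.016), NDUFC2 (0.0173) and ATP5MC2 ILMN_1669102 (0.0329), where 1.25% and 3.2% of all tested probes did. Without p53-/- untreated replicate 2, 5 passed, with 6.81% of all tested probes, and these were the same 3, NDUFB7 (0.80 log2, 0.0447) and NDUFV3 ILMN_2387731 (-0.92 log2, 0.0404). Calls in both genotypes and in the same direction came from 2 probes, of UQCR10 and ATP5IF1, calls in p53-/- cells alone from 11 and in p53+/+ cells alone from 5, and 0 probes were called in opposite directions. The same overlap was not counted over all tested probes, of which 25.4% were called in p53-/- cells and 12% in p53+/+ cells. Whether members share calls more or less often than other probes is therefore not shown. A call in 1 genotype alone does not show a difference, since the difference itself did not pass for any member. The sign of the change was the same in both genotypes for 55 of 91 probes (60.4%), against 68.6% of all tested probes. Across the 91 probes the 2 effects had a Pearson r of 0.36 and a Spearman rho of 0.38, with r = 0.62 across all tested probes. Probes are not independent replicates, and all come from the same 8 arrays.

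**Figure D4:**
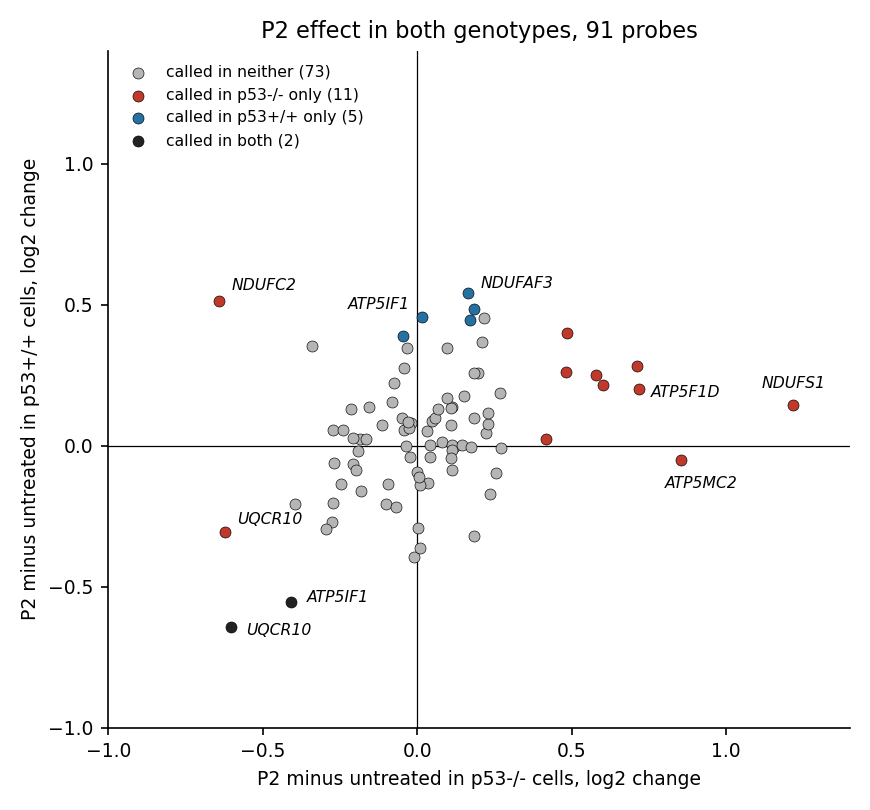
P2 effect in p53-/- cells (x axis) against that in p53+/+ cells (y axis), log2 change, 1 point per member probe, coloured by where it was called. UQCR10 ILMN_2366714 and ATP5IF1 ILMN_1685978 lie low on both axes, and NDUFS1 and ATP5MC2 ILMN_1669102 far right near 0 on the y axis. NDUFC2 lies at -0.64 and 0.51, and the other ATP5IF1 probe, ILMN_1727332, at 0.02 and 0.46.

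Between the genotypes themselves, 0 members were called in P2-treated cells, as were 0% of all tested probes, with 11 members at an unadjusted p under 0.05 (12.1%, with 13.8% of all tested probes). The smallest adjusted p was 0.172 for NDUFS8, at -0.48 ± 0.10 log2 in p53-/- relative to p53+/+ cells, and it was called with a variance trend and robust moderation (0.0405), as were 0.398% of all tested probes. In untreated cells 0 members were called, with 0.0686% of all tested probes called and 8 members at an unadjusted p under 0.05 (8.79%, with 19.8% of all tested probes). The untreated p53-/- values were lower for NDUFS1, for ATP5MC2 ILMN_1669102 at -0.69 log2 (adjusted p = 0.0745), and for NDUFB7 at -0.78 log2 (0.106), and higher for NDUFC2 at 0.74 log2 (0.104). Without p53-/- untreated replicate 2, 3 were called, NDUFS1, NDUFB7 (-1.16 log2, adjusted p = 0.00125) and ATP5MC2 (-0.84 log2, 0.0152), with 9.08% of all tested probes called. The comparison of untreated cells and the P2 effect in p53-/- cells share the untreated p53-/- arrays. Over all members the median difference, p53-/- minus p53+/+, was -0.01 log2 in treated and -0.003 log2 in untreated cells.

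Promoter letters were counted as a feature that the selection did not use, with no test. RefSeq windows on GRCh38.p14, from 250 bases before to 50 bases after the annotated start, were at hand for 64 of the 74 genes, 77 windows in all. The letters searched on both strands were GCGC, any base and TGCGC for NRF1, CCGGAAG for ETS factors and AAGATGGC for YY1, and matches of different motifs overlapped in 0 member windows. NRF1 letters were found in 20.8% of member windows and 5.78% of all 35116 windows, ETS letters in 28.6% and 10.3%, and YY1 letters in 14.3% and 2.89%. Of the windows of protein-coding genes, 7.39% held NRF1 letters, 12.8% ETS letters and 3.53% YY1 letters. Any of the 3 was found in 51.9% of member windows and 17% of all windows. Among genes called for the mean P2 effect, NRF1 letters were found for 1 of 10 higher and 3 of 5 lower genes, ETS letters for 2 of 10 and 1 of 5, and YY1 letters for 2 of 10 and 0 of 5. A match is a description of letters and not a measured site.

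The windows of 3 genes described above are shown because each holds 1 of the motifs, in capitals. Each is printed along the gene's own strand, and for UQCR10 and NDUFS1 the capitals are the motif read on the opposite strand. UQCR10 (chr22:29767119-29767418, + strand), called lower in both genotypes by 1 of its 3 probes, holds NRF1 letters. NDUFS1 (chr2:206159395-206159694, - strand, 1 of 2 windows), called higher in p53-/- cells, holds ETS letters. NDUFA7 (chr19:8321326-8321625, - strand), called higher for the mean effect, holds YY1 letters.
UQCR10: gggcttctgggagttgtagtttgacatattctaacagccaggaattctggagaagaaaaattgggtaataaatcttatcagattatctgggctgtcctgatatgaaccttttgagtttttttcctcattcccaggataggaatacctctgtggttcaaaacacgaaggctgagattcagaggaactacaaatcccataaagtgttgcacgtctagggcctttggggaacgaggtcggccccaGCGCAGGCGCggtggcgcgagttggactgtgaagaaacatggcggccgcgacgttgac
NDUFS1: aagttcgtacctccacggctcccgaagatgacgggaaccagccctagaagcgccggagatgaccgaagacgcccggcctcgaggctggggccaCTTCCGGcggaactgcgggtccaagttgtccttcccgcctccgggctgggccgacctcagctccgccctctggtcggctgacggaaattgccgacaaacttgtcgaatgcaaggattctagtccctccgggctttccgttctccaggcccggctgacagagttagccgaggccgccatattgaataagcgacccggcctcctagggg
NDUFA7: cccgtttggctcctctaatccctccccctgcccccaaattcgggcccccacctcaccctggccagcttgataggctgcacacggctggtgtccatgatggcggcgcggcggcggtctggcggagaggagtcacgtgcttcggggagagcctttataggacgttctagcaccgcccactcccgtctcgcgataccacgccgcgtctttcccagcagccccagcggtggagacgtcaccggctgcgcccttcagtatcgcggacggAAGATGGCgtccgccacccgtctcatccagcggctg

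Other genes of respiration were taken from lists outside the name prefixes. Over all tested probes, 25.4% were called in p53-/- cells (11.8% higher and 13.6% lower). In p53+/+ cells 12% were (5.71% higher and 6.29% lower). The list of electron carriers also held ubiquinone synthesis genes, CYC1 of complex III, and the assembly factors FOXRED1, DMAC1 and DMAC2. Of its genes, 16 of 17 were measured by 18 probes, with 0 called higher and 1 lower in p53-/- cells and 0 called in p53+/+ cells. ETFB, which hands electrons from fatty acid oxidation to the chain, fell by 0.60 log2 in p53-/- cells by probe ILMN_2300970 (adjusted p = 0.0143), while its probe ILMN_1729374 changed by 0.56 log2 (adjusted p = 0.051). The call was lost without p53-/- untreated replicate 1, P2 replicate 1 or P2 replicate 2 (0.0699 to 0.076). Of further assembly factors, 41 of 50 were measured by 46 probes, with 6 called higher and 4 lower in p53-/- cells, and 1 higher and 2 lower in p53+/+ cells. LRPPRC, which stabilizes the mitochondrial mRNAs of the chain, read 9.07 and 9.13 with P2 against 9.69 and 9.71 untreated in p53-/- cells, and 8.81 and 8.94 with P2 against 9.44 and 9.53 untreated in p53+/+ cells. Treated arrays were below untreated ones in both genotypes, and LRPPRC fell by 0.60 log2 in p53-/- cells, with an adjusted p of 0.00424, and by 0.61 log2 in p53+/+ cells, with an adjusted p of 0.00652. The call in p53-/- cells was kept whichever array was left out, and that in p53+/+ cells was lost without untreated replicate 2 or P2 replicate 1 (0.0545 and 0.0619).

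COA8, which protects complex IV during its assembly, read 8.18 and 7.99 with P2 against 6.04 and 6.11 untreated in p53-/- cells, and 7.93 and 7.26 with P2 against 7.66 and 7.39 untreated in p53+/+ cells. The untreated p53-/- arrays were the lowest of the 8, and the p53+/+ groups overlapped. COA8 rose by 2.02 ± 0.20 log2 in p53-/- cells (adjusted p = 0.000308), while it changed by 0.07 log2 in p53+/+ cells, with a difference of 1.94 log2 (adjusted p = 0.0762). The COA8 call was kept whichever array was left out (0.00697 at most). COX11, a copper chaperone for complex IV, rose in both genotypes, by 0.56 log2 in p53-/- cells, with an adjusted p of 0.0495, and by 0.76 log2 in p53+/+ cells, with 0.0289. Leaving out single arrays ended the COX11 call in p53-/- cells in 6 of 8 cases, all but the untreated p53+/+ arrays (0.0741 to 0.219), and that in p53+/+ cells without untreated replicate 1 (0.44 log2), P2 replicate 1 or P2 replicate 2 (0.111 to 0.139). NUBPL and UQCC1, assembly factors of complexes I and III, rose by 0.92 and 0.88 log2 in p53-/- cells, where untreated replicate 1 read 5.09 and 5.78 and replicate 2 read 5.84 and 6.60. Without that replicate 1 the changes were 0.55 log2 for NUBPL (adjusted p = 0.0342) and 0.47 log2 for UQCC1 (0.0556). The NUBPL call was lost without p53-/- P2 replicate 1 (0.0997), and that of UQCC1 without untreated replicate 1 or either P2 replicate of p53-/- cells (0.0556 to 0.0993).

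Of the regulators of mitochondrial biogenesis and mitochondrial gene expression, 21 of 29 were measured by 24 probes. In p53-/- cells 2 were called higher and 1 lower, and in p53+/+ cells 0 were called, where 25.4% and 12% of all tested probes were. The coactivator gene PPARGC1A and the factor gene GABPA were not detected on 2 arrays. The topoisomerase gene TOP1MT rose by 1.31 ± 0.37 log2 in p53-/- cells by probe ILMN_1683740 (adjusted p = 0.0301), which read 5.08 and 6.45 on the untreated p53-/- arrays. The change was 0.63 log2 without untreated replicate 1 and 2.00 log2 without replicate 2. Its brighter probes ILMN_2293374 and ILMN_2405628 changed by 0.07 and -0.28 log2 and were not called. CHCHD4, an import protein of the intermembrane space, rose by 0.36 log2 (adjusted p = 0.0429), and PHB1, a prohibitin, fell by 0.37 log2 (adjusted p = 0.029). The calls of TOP1MT and PHB1 were lost without untreated replicate 1 or either P2 replicate of p53-/- cells, that of PHB1 also without untreated replicate 2 (0.0555 to 0.157 for both), and that of CHCHD4 without any array but p53-/- untreated replicate 2 (0.0571 to 0.197).

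The citric acid cycle list, which supplies the chain with NADH, had 24 of 27 genes measured by 28 probes. In p53-/- cells 2 probes were called higher and 1 lower, and in p53+/+ cells 4 higher and 0 lower. Of all tested probes, 25.4% and 12% were called in these genotypes. IDH3G, a regulatory subunit of isocitrate dehydrogenase, read 9.26 and 9.26 with P2 against 8.54 and 8.35 untreated in p53+/+ cells, and rose by 0.82 ± 0.12 log2 (adjusted p = 0.00351), with 0.21 log2, not called, in p53-/- cells. The other calls in p53+/+ cells were PDK2, a kinase that restrains pyruvate dehydrogenase, at 0.69 log2 (adjusted p = 0.0121), OGDH at 0.51 log2 (0.0436, by the dimmest of 3 probes, ILMN_1747159) and IDH3B at 0.42 log2 (0.0438). In p53-/- cells the catalytic subunit gene IDH3A fell by 0.52 log2 (adjusted p = 0.0283), and the succinyl-CoA ligase genes SUCLG2 and SUCLG1 rose by 0.43 log2 (0.0164) and 0.35 log2 (0.0401). IDH3G was called whichever array was left out (0.0384 at most). Without p53+/+ P2 replicate 1 or untreated replicate 2, PDK2 was lost (0.0984 and 0.0893), and OGDH and IDH3B were lost with 5 and 6 of the 8 arrays left out, either P2 array of each genotype among them (0.0612 to 0.234 for both). OGDH was at 0.33 log2 without p53+/+ untreated replicate 2. IDH3A was lost without p53-/- P2 replicate 1 (-0.31 log2, 0.178) or untreated replicate 2 (0.0814), SUCLG2 without either of these or P2 replicate 2 (0.062 to 0.0783), and SUCLG1 whichever array was left out (0.0516 to 0.166).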

How the data were processed

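Illumina bead arrays of 8 RNA samples were used. GenomeStudio is named per the submitters' processing notes, and no genome build is given in the sources used here. The authors deposited non-normalized intensities and a detection p-value for each probe and array, and log2 values, which equal the quantile-normalized log2 intensities within 5e-09. From the intensities, background was corrected by normexp (limma 3.58.1, R 4.3.3, offset 16, from the detection p-values), followed by log2 and quantile normalization. The tests took every probe that 2 or more arrays detected at p under 0.05. Names are RefSeq symbols matched by the gene ID of the platform annotation (21813 probes), or the annotation's own symbol without a match. In all 21834 probes had 1 symbol, 0 several and 2692 none. Candidate members could match the name prefixes by either symbol. One linear model over the 8 arrays gave each group its own mean (4 residual and 5.149 prior degrees of freedom), with moderated two-sided tests adjusted by Benjamini-Hochberg over 14574 probes. A gene not well above background throughout a group has a fold given as a bound.

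Named genes were, for each complex, the called members that changed most in each P2 effect (at most 4), the smallest p-values of the difference, every SDH gene, paired isoforms, ATP5IF1, genes whose probes disagree, and up to 4 called genes per list of other pathway genes. The genes ATP5MC1, NDUFA3, NDUFV2, probe ILMN_1691557 and single comparisons of scale were added after their values were seen. The members and lists were chosen with earlier results of these data known. Alternatives were other background corrections, scalings, filters and variance models, array weights, a replicate block, 1 probe per gene, only the groups compared, and each array left out. Same-numbered replicates were not paired: their deviations correlated between groups from -0.19 to 0.20. The pipeline was tested on simulated data.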

Additional observations from a re-analysis of the deposited data

How the results depend on the processing

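The number of called members was within 1.5 times that reported, except as follows. For P2 in p53-/- cells it was 7 with median scaling (17.5% of all tested probes) and 8 with only the groups compared, where that share was not counted. With an array left out it was 4 to 13 (10.3% to 26.7%). For P2 in p53+/+ cells it was 2 with median scaling (6.95%), 4 with 1 probe per gene (14.9%) and 1 to 8 with an array left out (4.03% to 15.8%). The mean effect gave 7 with median scaling (25.3%) and 9 to 15 with an array left out (22.1% to 34.3%). The difference between the effects gave 3 with median scaling (3.2%), 1 when moderation was robust and followed a variance trend (1.25%), and 0 to 5 with an array left out, 5 being without p53-/- untreated replicate 2 (6.81%). The genotype difference in treated cells gave 1 with that variance model and 0 to 0 with an array left out. In untreated cells it gave 4 with median scaling (4.26%) and 1 without background correction (2.5%), with the authors' log2 values (2.3%), with that variance model (1.75%) or with 1 probe per gene (1.09%), NDUFS1 in each, and 0 to 3 with an array left out, 3 being without p53-/- untreated replicate 2 (9.08%). The cause of these changes was not tested.

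The median change over members moved by more than the spread between replicates with median scaling: to -0.0760 log2 in p53-/- cells, -0.0864 in p53+/+ cells, -0.0802 for the mean effect and 0.0585 for the genotype difference in treated cells. With an array left out it ran from 0.00773 to 0.0760 in p53-/- cells, -0.0261 to 0.142 in p53+/+ cells, -0.00803 to 0.0725 for the mean effect, -0.0691 to 0.0546 for the difference, -0.0494 to 0.00565 for treated and -0.0861 to 0.0774 for untreated genotypes. With the replicate number as a block the calls were 13, 6 and 20 for the P2 effects in p53-/- cells, in p53+/+ cells and their mean, and 0 for their difference. Of all tested probes 24.2%, 10.3%, 30.7% and 0% were called. In this setting ATP5IF1 ILMN_1727332 and NDUFS8 were not called in p53+/+ cells. Of the results for single members, 0 changed sign past the threshold under any alternative. With 2 arrays a group and a median standard error of 0.13 log2, small changes are not detectable, and probes near background have compressed changes.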
